A study of Mus musculus with 16 samples.

Results

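The genes described here encode enzymes and small antigens on the outer face of thymocytes. They were chosen by symbol: Bst1 and Cd38, Entpd1 and Nt5e, Ly6d, Ly6a and Ly6e, Thy1 and Cd24a. The list was drawn up because Bst1 and Ly6d fell most strongly with the T cell receptor transgene of the study, so the transgene difference chose the genes and is given here as a description, with no test. Of the 9 genes, 7 had a probe set and 5 of these passed the filter on low signals, out of 19531 genes measured and 10689 tested. Cd38 and Ly6a were not analysed here. Entpd1 and Nt5e lay below the filter, so their values are given here with no test; they enter a test only in alternatives with a lower filter or none.

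Gene expression was measured on 16 microarrays of double-negative thymocytes, the cells that carry neither CD4 nor CD8 yet, from mice 4 weeks old. BDC mice bear a transgene for the receptor of BDC2.5, a helper T cell clone able to cause diabetes, and non-Tg mice lack it and form receptors of many kinds. NOD mice develop autoimmune diabetes, and B6g7 mice are C57BL/6 mice with the NOD haplotype of the major histocompatibility complex, so all groups share that haplotype. After CD4 and CD8 cells were removed with complement, lineage-negative cells were sorted as DN4 (negative for CD44 and CD25) or as the earlier DN2-3 (positive for CD25). The 8 groups of 2 arrays each were BDC/NOD DN4, BDC/B6g7 DN4, NOD DN4, B6g7 DN4, BDC/NOD DN2-3, BDC/B6g7 DN2-3, NOD DN2-3 and B6g7 DN2-3. In each BDC group 1 array was from a male and 1 from a female, and the non-Tg arrays were all female. The labels do not say whether the arrays of a group came from separate animals, so a p-value here reflects the spread among samples, which may be technical.

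Many of these proteins are held in the membrane by a glycosylphosphatidylinositol (GPI) lipid anchor. Bst1 and Cd38 split NAD outside the cell and make cyclic ADP-ribose. Entpd1 cuts extracellular ATP and ADP to AMP, and Nt5e cuts AMP to adenosine, a suppressor of T cell activation. The Ly6 proteins are short GPI-anchored antigens, and several of them, with Thy1 and Cd24a, have long served to mark stages of thymocyte development.

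Values are log2 intensities. Signals up to 5.98, the highest signal of 3 Y-linked genes on female arrays, were taken as not above background. Il2ra, which encodes CD25, checked the sort: its group means were 9.10 to 10.38 in DN4 cells and 12.36 to 13.20 in DN2-3 cells. Not every marker of the earlier stage ran this way in BDC cells. Hes1 averaged 11.19 in BDC/NOD DN4 and 10.71 in BDC/NOD DN2-3 cells, and 11.22 and 10.65 in the same stages of BDC/B6g7. Rag1 averaged 10.03 in BDC/NOD DN4 and 9.57 in BDC/NOD DN2-3 cells. In BDC/B6g7 cells Rag1 ran the other way, at 6.76 in DN4 and 8.2 in DN2-3. In non-Tg NOD cells it was level, at 11.08 in DN4 and 11.09 in DN2-3. Median intensities were 123.1 to 138.2, and the correlation of replicate arrays over genes was 0.986 to 0.997. The NOD DN2-3 arrays were the least alike pair, with a median absolute log2 difference of 0.25, against 0.07 to 0.13 in the other pairs, and replicate 1 had the lowest ratio of upper to lower quartile, 6.82 against 7.46 to 10.3 on the other arrays. Without it, Bst1 in NOD minus B6g7 in non-Tg DN2-3 cells was 0.43 (adjusted p = 0.128). Among the tests of Bst1, Ly6d and Thy1 named below, leaving it out changed 1 call: Thy1 in DN4 minus DN2-3 in BDC cells was then 0.17 with an adjusted p of 0.038.

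Marker lists of other cells and of the earlier stage differed with the transgene. The DN2-3 stage list, with 12 genes of 12, summed to 16990 to 17580 in BDC DN2-3 cells and 25810 to 30770 in non-Tg DN2-3 cells, lower in BDC as were Bst1 and Ly6d. In DN4 cells it summed to 9977 to 11820 in BDC and 10790 to 13240 in non-Tg. For 7 matched genes of gamma-delta and innate-like T cells out of 10 listed, all above background in every group, the summed intensity was 10660 to 19210 in BDC DN4 cells and 1791 to 1996 in non-Tg DN4 cells. In DN2-3 cells it was 5965 to 8462 in BDC and 2506 to 3667 in non-Tg. For 7 mature T cell genes of 8 it was 5299 to 12500 in BDC DN4 cells and 2951 to 3101 in non-Tg DN4 cells. The NK cell list, with 7 genes of 8, summed to 4852 to 6954 in BDC DN4 cells and 1371 to 2105 in non-Tg DN4 cells, while Ncr1, Klrb1c, Klrd1 and Eomes were not above background in any group. The thymic stroma list, with 10 genes of 10, summed to 2141 to 2666 in BDC DN4 cells and 1513 to 1656 in non-Tg DN4 cells. The difference lay in Pecam1, at 10.29 in BDC/NOD and 10.71 in BDC/B6g7 DN4 cells, against 9.19 in NOD and 9.16 in B6g7 DN4 cells. The other genes of that list were not higher as a set, and Krt5 was not above background in any group. The myeloid list, with 13 genes of 13, summed to 1071 to 1269 in BDC DN4 and 1383 to 1516 in non-Tg DN4 cells, and to 1466 to 1626 in BDC DN2-3 and 1600 to 1897 in non-Tg DN2-3 cells, while Itgam, Csf1r, Cd14 and Adgre1 were not above background in any group. The B cell list, with 10 genes of 11, summed to 1024 to 1103 in BDC DN2-3 and 1400 to 1575 in non-Tg DN2-3 cells. In DN4 cells that list summed to 990.2 to 1360 in BDC and 1073 to 1158 in non-Tg. Its genes Cd79a, Ms4a1 and Ebf1 were not above background in any group. The part of these markers in the results below was not tested, and in sorted bulk samples fewer cells of a type and less RNA per cell cannot be told apart.

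Bst1, the GPI-anchored NAD enzyme, spanned the widest range of the set, from 5.87 to 11.74. In DN4 cells it read 6.64 and 6.96 in BDC/NOD, 6.24 and 5.87 in BDC/B6g7, 10.05 and 9.98 in NOD, and 8.92 and 8.83 in B6g7. In DN2-3 cells it read 7.58 and 7.79 in BDC/NOD, 7.06 and 7.28 in BDC/B6g7, 11.74 and 11.73 in NOD, and 11.25 and 11.35 in B6g7. Every group was separate from its neighbours in rank: both non-Tg DN2-3 groups were highest, then both non-Tg DN4 groups, then BDC DN2-3, then BDC DN4. In BDC/B6g7 DN4 cells 1 of the arrays was not above background.

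Ly6d, the Ly6 antigen known from B-lineage progenitors and thymocytes, spanned 7.05 to 11.04. In DN4 cells it read 7.64 and 7.85 in BDC/NOD, 7.31 and 7.05 in BDC/B6g7, 9.79 and 9.84 in NOD, and 10.90 and 10.48 in B6g7. In DN2-3 cells it read 7.97 and 8.25 in BDC/NOD, 8.17 and 8.23 in BDC/B6g7, 10.62 and 10.70 in NOD, and 11.04 and 10.47 in B6g7. All 8 BDC arrays were below all 8 non-Tg arrays, as they were for Bst1. This contrast chose both genes, so the separation is part of what chose them. Within a single stage, 12.5% of all genes tested in DN2-3 and 17.5% in DN4 cells were lower in BDC without overlap. Among the non-Tg groups NOD DN4 stood alone at the low end, while B6g7 DN4 overlapped both DN2-3 groups.

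Ly6e, an antigen of immature thymocytes, was bright and nearly flat: its 16 arrays lay between 13.39 and 13.65. Thy1, the classical GPI-anchored T cell antigen, lay between 12.22 and 12.87, and Cd24a, the heat-stable antigen that immature thymocytes carry, between 12.47 and 13.13. The highest group of Thy1 was B6g7 DN4, at 12.87 and 12.78, and the lowest was B6g7 DN2-3, at 12.37 and 12.33. The highest group of Cd24a was NOD DN2-3, at 13.13 and 12.99, and the lowest was BDC/B6g7 DN4, at 12.51 and 12.49.

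**Figure D1:**
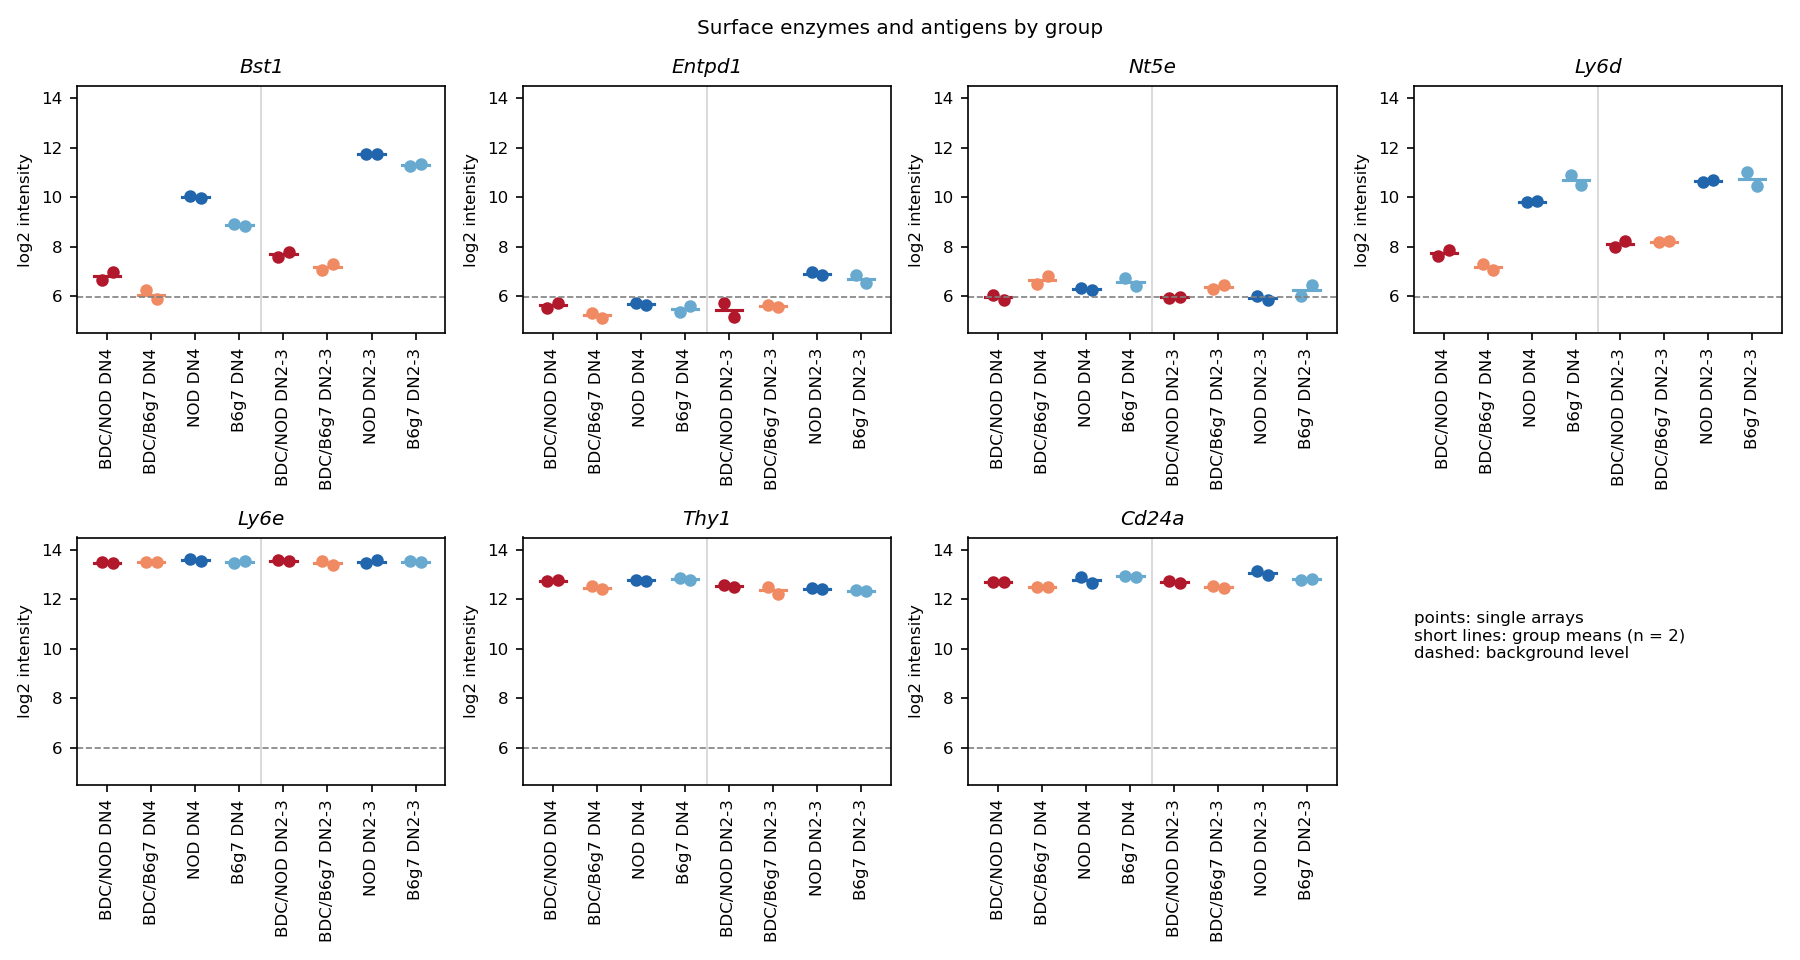
Log2 intensity of each of the 7 genes with a probe set, by group, with DN4 groups left of the grey line and DN2-3 groups right of it; points are single arrays, short lines are group means (n = 2 each) and the dashed line is the background level of 5.98. Bst1 and Ly6d are low in all BDC groups, Entpd1 is above the dashed line only in NOD DN2-3 and B6g7 DN2-3, and Ly6e is level from 13.39 to 13.65.

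Entpd1, the enzyme that removes extracellular ATP, was above background on 4 arrays only. These were the non-Tg DN2-3 arrays, at 6.97 and 6.86 in NOD and 6.86 and 6.52 in B6g7. The other 12 arrays lay between 5.12 and 5.74, so no order among them can be read. Non-Tg DN4 cells were lower than non-Tg DN2-3 cells by at least 0.82 on the log2 scale, with the DN4 arrays counted at the background level, and BDC DN2-3 cells were lower than non-Tg DN2-3 cells by the same bound.

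Both start sites of Entpd1 in the RefSeq table (build GRCm38.p6) are shown, since Entpd1 was above background in 2 groups only. Each promoter runs from 250 bases before the start to 50 after it. The first is chr19:40612116-40612415 and the second chr19:40659520-40659819, both on the plus strand. Capitals mark the motifs found among 5 that were searched on both strands: CAGGTG (an E-box), CAGCTG (another E-box), TGTGGT (the Runx motif), CCGGAAG (an Ets motif) and AGATAA (bound by Gata factors). The motif CAGCTG reads the same on both strands.
Entpd1 first start: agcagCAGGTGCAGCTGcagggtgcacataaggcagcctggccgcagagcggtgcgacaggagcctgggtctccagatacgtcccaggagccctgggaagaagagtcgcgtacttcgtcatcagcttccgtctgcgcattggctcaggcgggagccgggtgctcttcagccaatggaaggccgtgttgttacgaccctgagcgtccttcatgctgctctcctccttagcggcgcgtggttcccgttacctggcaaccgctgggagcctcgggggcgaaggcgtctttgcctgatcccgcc
Entpd1 second start: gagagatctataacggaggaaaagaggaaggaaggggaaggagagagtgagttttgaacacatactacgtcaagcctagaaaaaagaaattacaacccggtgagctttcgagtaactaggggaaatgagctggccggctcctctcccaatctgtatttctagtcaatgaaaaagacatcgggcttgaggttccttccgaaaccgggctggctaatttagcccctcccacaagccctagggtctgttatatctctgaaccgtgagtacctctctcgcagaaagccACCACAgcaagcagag
The first held CAGGTG from base -245 and CAGCTG from base -239, next to each other without overlap, and the second held TGTGGT on the reverse strand from base 35. Of 32851 promoters of this length, 20.2% held CAGGTG, 16.3% CAGCTG, 16.8% TGTGGT, 8.86% CCGGAAG and 11.2% AGATAA. Such matches are common and describe only the letters.

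Nt5e, the enzyme that makes adenosine from AMP, was near background in every group, between 5.85 and 6.82. In DN4 cells it read 6.06 and 5.86 in BDC/NOD, against 6.48 and 6.82 in BDC/B6g7, and it read 6.31 and 6.26 in NOD, against 6.75 and 6.42 in B6g7. NOD arrays were below B6g7 arrays in each genotype and stage, without overlap, and the average strain difference was -0.43 ± 0.08. Arrays of the strains did not overlap for 77.8% of all genes tested in BDC DN4, 69.7% in non-Tg DN4, 56.1% in BDC DN2-3 and 46.9% in non-Tg DN2-3 cells. Of the 8 NOD arrays 4 were above background, and none in BDC DN2-3, while all 8 B6g7 arrays were, and with signals raised to the background level the average was -0.40. The Nt5e promoter in the table held none of the 5 motifs.

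The transgene contrast asks how cells with a ready-made receptor differ from polyclonal cells, and it is the contrast that chose these genes. The log2 difference of Bst1 between BDC and non-Tg DN2-3 cells was -4.09 ± 0.10 (SE), or 17-fold. In DN4 cells it was -3.02 ± 0.10, or 8.12-fold. By size of fall Bst1 ranked 1 of 10689 genes in DN2-3 cells and 2 in DN4 cells. Ly6d differed by -2.55 ± 0.13 in DN2-3 cells and by -2.79 ± 0.13 in DN4 cells, with ranks of 5 and 4. Over all genes tested, 19.3% were called lower in BDC DN2-3 cells and 30.8% in BDC DN4 cells. Without overlap of the arrays, 12.5% were lower in BDC DN2-3 cells and 17.5% in BDC DN4 cells.

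The size of the difference was also read within each strain. In DN2-3 cells Bst1 differed by -4.06 in NOD and -4.12 in B6g7, and Ly6d by -2.55 in both. In DN4 cells Bst1 differed by -3.22 in NOD and -2.82 in B6g7, and Ly6d by -2.07 in NOD and -3.51 in B6g7. Of the other genes, Entpd1 was lower in BDC than in non-Tg DN2-3 cells by at least 0.82, without overlap, and Nt5e differed by 0.08 in DN2-3 and -0.13 in DN4 cells. Cd24a differed by -0.32 in DN2-3 cells and -0.24 in DN4 cells, Thy1 by 0.05 in DN2-3 and -0.18 in DN4 cells, and Ly6e by -0.01 in DN2-3 and -0.06 in DN4 cells; after quantile normalization again, Thy1 was at -0.11 in DN2-3 and Ly6e at 0.04 in DN4 cells. BDC and non-Tg arrays of Ly6e and Thy1 overlapped in both stages.

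**Figure D2:**
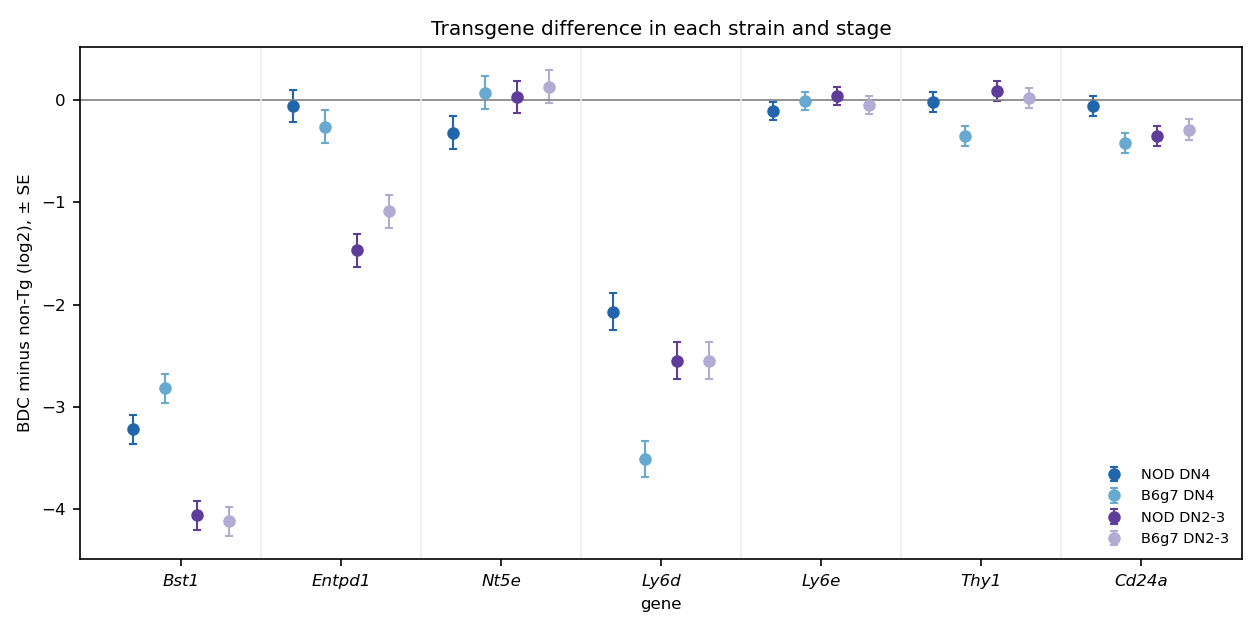
BDC minus non-Tg in log2 for each gene, by strain and stage; points are model estimates, bars are ± SE, and each rests on 2 arrays a group. Bst1 lies between -4.12 and -2.82 and Ly6d between -3.51 and -2.07, while Ly6e stays within 0.11 of 0; this contrast chose Bst1 and Ly6d, so no test is given.

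The strain contrast asks whether NOD cells differ from B6g7 cells of the same genotype and stage, and it was not the contrast that chose the genes. In single contexts it shares arrays with the transgene differences read within each strain. Bst1 was higher in NOD than in B6g7 cells in each of the 4 contexts, and its arrays did not overlap in any of them. The same was so for 46.9% to 77.8% of all genes in the single contexts, as given with Nt5e. Averaged over the contexts the difference was 0.71 ± 0.07, or 1.63-fold (limma, adjusted p = 3.69e-06). It was the single called gene of 5 tested, where 41.6% of all genes were called. The call held in all 27 alternatives, at 0.66 to 0.79.

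By context, the strain difference of Bst1 was 0.74 ± 0.14 in BDC DN4 cells (adjusted p = 0.000734), 1.14 ± 0.14 in non-Tg DN4 cells (adjusted p = 0.000178), 0.51 ± 0.14 in BDC DN2-3 cells (adjusted p = 0.0351) and 0.44 ± 0.14 in non-Tg DN2-3 cells (adjusted p = 0.059). The last did not pass the threshold of 0.05 and passed it in 4 of 28 alternatives, and the BDC DN2-3 call was lost in 10 of 28 alternatives, among them without the 4 male arrays (0.50, adjusted p = 0.201). Leaving out either array of B6g7 DN2-3, BDC/B6g7 DN2-3 or BDC/NOD DN2-3 ended that call, with values over all alternatives from 0.40 to 0.62.

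Ly6d showed opposite strain differences in DN4 cells of the 2 genotypes. It was lower in NOD than in B6g7 among non-Tg DN4 cells, by a log2 difference of -0.87 ± 0.18 (adjusted p = 0.00705), and higher in NOD than in B6g7 among BDC DN4 cells, by 0.57 ± 0.18 (adjusted p = 0.0216). The arrays did not overlap in either comparison. The interaction of strain with transgene in DN4 was 1.44 ± 0.25 (adjusted p = 0.00179), and it kept its call in all 28 alternatives, at 1.23 to 1.68 with adjusted p from 0.000257 to 0.0478. The choice of Ly6d limits this p. The interaction is uncorrelated with the transgene difference averaged over strains, but it is built from the falls in each strain, and Ly6d ranked 1 of 10689 in B6g7 DN4 cells. If single strains entered the choice, the p is not independent of it. The same limit holds for the p-values of the strain differences in non-Tg and BDC DN4 cells, which rest on the same arrays. Ly6d was the single called gene of 5 tested, where 20.1% of all genes were called.

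Each of the simple differences behind that interaction lost its call in 3 of 28 alternatives and kept its sign. The non-Tg DN4 call was lost without the male arrays (-0.87, adjusted p = 0.0576), without replicate 1 of B6g7 DN4 (-0.66, adjusted p = 0.0839) and without replicate 2 of NOD DN4 (-0.90, adjusted p = 0.0502). The BDC DN4 call was lost without the male arrays (0.81, adjusted p = 0.0964), which left 1 array in each BDC group, and without replicate 2 of BDC/B6g7 DN4 (0.44, adjusted p = 0.165) or of BDC/NOD DN4 (0.47, adjusted p = 0.151). In DN2-3 cells Ly6d did not show a strain difference past the threshold in either genotype (-0.09 ± 0.18 in both), and the interaction there was 0.00 ± 0.25 (adjusted p = 0.999). No member was called in that interaction, where 1.15% of all genes were. Beside the DN4 result, the gamma-delta list summed to 10660 to 11520 in BDC/NOD DN4 and 17440 to 19210 in BDC/B6g7 DN4 cells, and the mature T cell list to 5299 to 5356 in BDC/NOD DN4 and 10090 to 12500 in BDC/B6g7 DN4 cells; their part in the result was not tested.

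Thy1 was 0.27 ± 0.10 higher in NOD than in B6g7 among BDC DN4 cells (adjusted p = 0.0385), a call lost in 14 of 28 alternatives. With Bst1 and Ly6d this made 3 of 5 genes called in BDC DN4 cells, against 41% of all genes, and 2 of 5 in non-Tg DN4 cells, against 18.7%. In DN2-3 cells 1 of 5 was called in BDC, against 9.19% of all genes, and 0 of 5 in non-Tg, against 10.6%. Ly6e and Cd24a passed the threshold in none of these: Ly6e differed by -0.01 to 0.09 and Cd24a by -0.16 to 0.25.

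**Figure D3:**
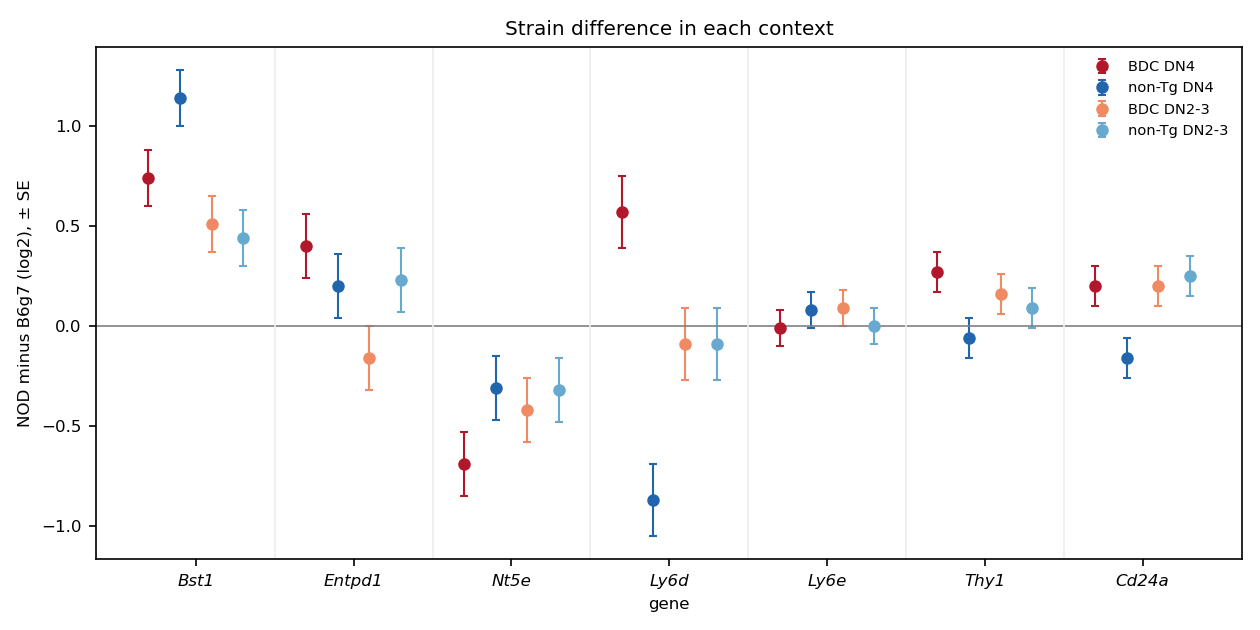
NOD minus B6g7 in log2 for each gene in BDC DN4, non-Tg DN4, BDC DN2-3 and non-Tg DN2-3 cells; points are model estimates and bars are ± SE, with 2 arrays a group. Bst1 is above 0 in all 4 contexts (0.44 to 1.14) and Ly6d is at 0.57 in BDC DN4 but -0.87 in non-Tg DN4; Entpd1 and Nt5e lay below the filter.

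The stage contrast asks what changes between DN2-3 and DN4, and averaged over genotypes it is uncorrelated with the transgene difference. Its tests took all arrays as independent. Deviations of samples with the same number correlated between stages at 0.46 in BDC/NOD, 0.48 in BDC/B6g7, 0.58 in NOD and 0.1 in B6g7. In the BDC groups number 1 was male and number 2 female. Pairs of groups across the BDC strains correlated at 0.31 to 0.41. Whether same-numbered samples came from the same mice was not tested, and the stage p-values do not allow for it. Bst1 and Ly6d fell and Thy1 rose, 3 of 5 genes tested, where 27.5% of all genes were called. Bst1 differed by -1.54 ± 0.07, or 2.90-fold (adjusted p = 2.79e-09), Ly6d by -0.57 ± 0.09, or 1.49-fold (adjusted p = 0.00035), and Thy1 by 0.29 ± 0.05, or 1.22-fold (adjusted p = 0.000631). These 3 calls held in all 27 alternatives. Cd24a (-0.05 ± 0.05) and Ly6e (0.00 ± 0.04) did not pass the threshold.

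The same 3 genes were called in each strain, where 19.4% of all genes were called in NOD and 34.9% in B6g7. Bst1 differed by -1.30 ± 0.10 in NOD (adjusted p = 1.11e-06) and by -1.77 ± 0.10 in B6g7 (adjusted p = 4.09e-08). The interaction of strain with stage for Bst1 was 0.47 ± 0.14 (adjusted p = 0.0299), the single call of 5, against 21.8% of all genes. The median of all genes tested in that interaction was itself 0.13, and the call was lost in 12 of 27 alternatives, such as quantile normalization again (0.39, adjusted p = 0.0841) and leaving out the male arrays (0.64, adjusted p = 0.081). Ly6d differed by -0.60 ± 0.13 in NOD and -0.54 ± 0.13 in B6g7, and Thy1 by 0.28 ± 0.07 in NOD and 0.29 ± 0.07 in B6g7. Without the male arrays, the Ly6d calls in NOD (-0.62, adjusted p = 0.0963) and B6g7 (-0.62, adjusted p = 0.0639) and the Thy1 call in NOD (0.31, adjusted p = 0.0916) were lost, while the differences were no smaller. Leaving out replicate 2 of BDC/NOD DN2-3 or of BDC/NOD DN4 also ended the Thy1 call in NOD.

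Within each genotype, Bst1 was lower in DN4 than in DN2-3 cells by 2-fold in BDC and 4.2-fold in non-Tg cells, and Ly6d by 1.62-fold in BDC and 1.37-fold in non-Tg cells; these estimates are correlated with the transgene differences that chose both genes and were not tested. In non-Tg B6g7 cells Ly6d differed between stages by -0.06 ± 0.18, within its spread, while in non-Tg NOD cells it differed by -0.84 ± 0.18. Thy1 rose by 0.41 ± 0.07 in non-Tg cells (adjusted p = 0.000315), without overlap of the arrays, and differed by 0.17 ± 0.07 in BDC cells (adjusted p = 0.0577), a test that passed the threshold in 7 of 28 alternatives. It was the single call of 3 in non-Tg cells, where 48.1% of all genes were called; 0 of 3 were called in BDC cells, where 51.1% of all genes were.

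The stage change of Thy1 was smaller in BDC than in non-Tg cells by a log2 difference of -0.24 ± 0.10, just inside the threshold (adjusted p = 0.0499), as 1 call of 3 against 57.8% of all genes. It kept the call in 8 of 27 alternatives, and after quantile normalization was applied again the difference was 0.00 (adjusted p = 0.992). The 4 non-Tg DN4 arrays of Thy1 were 12.76 to 12.87, and of the BDC DN4 arrays those of NOD, at 12.73 and 12.77, were higher than those of B6g7, at 12.52 and 12.43.

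**Figure D4:**
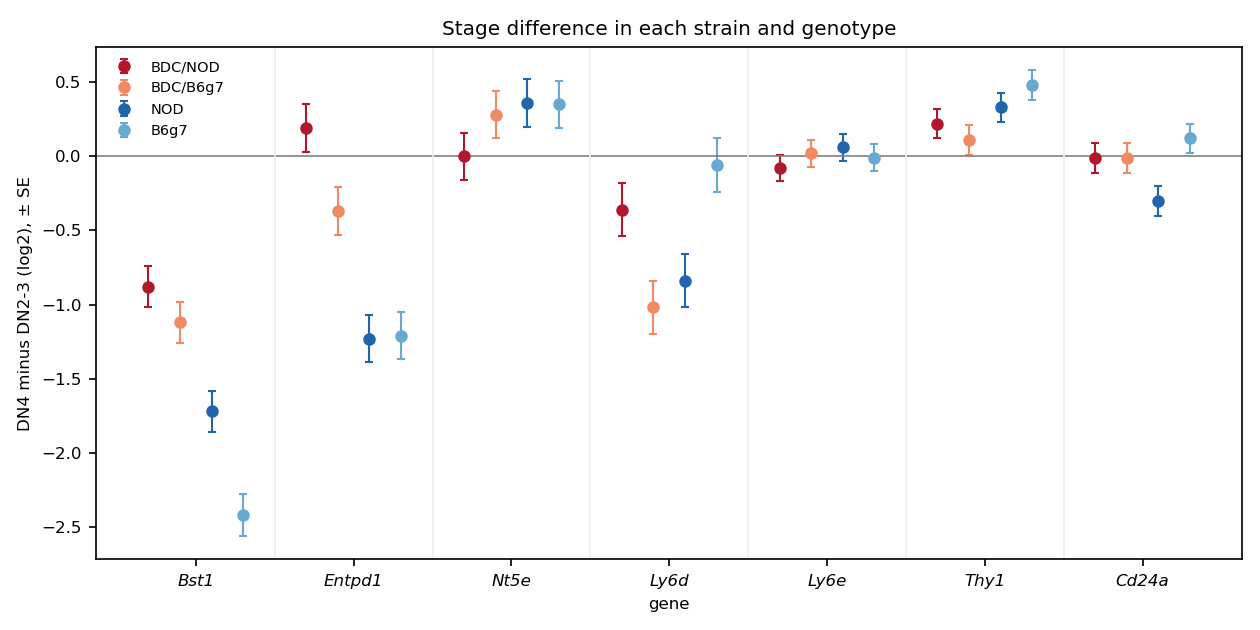
DN4 minus DN2-3 in log2 for each gene in BDC/NOD, BDC/B6g7, NOD and B6g7 cells; points are model estimates and bars are ± SE, with 2 arrays a group. Bst1 is below 0 in all 4 (-2.42 to -0.88), Thy1 is above 0 in all 4 (0.11 to 0.48), and Entpd1 is lower by at least 0.94 in NOD and 0.71 in B6g7 cells, with its DN4 signals not above background.

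Other genes of the same pathways were counted in the same fit, from lists chosen for their known roles and without the 9 genes. Among 13 tested genes of the Ly6 and urokinase receptor family, 5 fell and 0 rose with the transgene in DN2-3 cells, where 49.1% of all genes were called, and the median difference was -0.08 against 0.05 over all genes. In DN4 cells 4 fell and 2 rose, where 59.6% were called. With stage 3 fell and 0 rose. For each list below, the shares of all genes called with the transgene were 59.6% in DN4 cells and 49.1% in DN2-3 cells. They were 41.6% between strains and 27.5% with stage. Each share given with the lists counts calls in either direction. Those called lower with the transgene were 30.8% in DN4 cells and 19.3% in DN2-3 cells.

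Cd59a, an inhibitor of complement, was 6.23 to 6.82 in BDC and 8.80 to 9.77 in non-Tg DN2-3 cells, a difference of -2.63 ± 0.12 (adjusted p = 5.27e-09). No array overlapped. In DN4 cells it was not above background on any BDC array and 6.09 to 7.21 on non-Tg arrays. It thus fell by at least 0.70 there (adjusted p = 3.34e-06, from the limma fit to signals not raised to background). It also fell by 1.79 ± 0.09 with stage (adjusted p = 5.34e-09), but 4 of the 8 DN4 arrays were not above background, so this size is not exact. Over the alternatives, with signals raised to background among them, the stage difference was -1.87 to -1.57. Lypd6b fell by 1.46 ± 0.10 with the transgene in DN2-3 cells (adjusted p = 3e-07).

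Plaur, the urokinase receptor, rose in DN4 cells: it was 9.26 to 10.01 in BDC and 6.71 to 7.64 in non-Tg cells, a difference of 2.43 ± 0.16 (adjusted p = 4.26e-08). In DN2-3 cells the difference was 0.19 ± 0.16 (adjusted p = 0.349). Averaged over contexts it fell by 1.26 ± 0.11 between stages (adjusted p = 2.33e-06). This average does not describe both genotypes. As the transgene difference was 2.43 in DN4 but 0.19 in DN2-3 cells, the fall lay mostly in non-Tg cells.

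Among 11 tested genes of NAD metabolism and ADP-ribosylation, 2 rose and 3 fell with the transgene in DN4 cells, and 2 rose and 2 fell in DN2-3 cells. Nampt, the rate-limiting enzyme of NAD salvage, was 8.70 to 9.57 in BDC DN4 cells and 9.93 to 10.27 in non-Tg DN4 cells, a difference of -0.93 ± 0.07 (adjusted p = 8.14e-08). In the strain comparison 5 rose and 4 fell, and Art4, an ADP-ribosyltransferase family member on blood cells, was 6.62 to 7.34 in NOD and 7.59 to 8.49 in B6g7 cells, a difference of -1.27 ± 0.09 (adjusted p = 1.62e-07). With stage 2 rose and 2 fell.

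Among 19 tested purine enzymes, receptors and transporters, 11 rose and 5 fell with the transgene in DN4 cells, where 59.6% of all genes were called, with a median of 0.24 against -0.03 over all genes, and 6 rose and 8 fell in DN2-3 cells. P2rx7, an ATP-gated ion channel, was 9.40 to 10.21 in BDC and 7.39 to 7.60 in non-Tg DN4 cells, a rise of 2.32 ± 0.07 (adjusted p = 2.5e-11). In DN2-3 cells it rose by 1.46 ± 0.07 (adjusted p = 8.08e-09), with arrays at 8.56 to 9.45 in BDC and 7.31 to 7.74 in non-Tg cells. P2rx4, another ATP-gated channel, rose by 1.20 ± 0.10 in DN4 cells (adjusted p = 5.45e-07), and Pnp, purine nucleoside phosphorylase, fell by 1.22 ± 0.07 (adjusted p = 1.19e-08). Ada, which removes adenosine, rose by 0.85 ± 0.09 in DN2-3 cells (adjusted p = 1.4e-05) and fell by 0.76 ± 0.09 in DN4 cells (adjusted p = 1.18e-05).

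With stage 3 purine genes rose and 5 fell, and Dpp4, the peptidase that binds adenosine deaminase in humans, fell by 0.79 ± 0.04 (adjusted p = 1.14e-08). Between strains 4 rose and 4 fell. Entpd4, a relative of Entpd1 inside the cell, was 9.36 to 9.87 in NOD and 9.95 to 10.62 in B6g7 cells, a difference of -0.70 ± 0.05 (adjusted p = 1.91e-07).

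Among 9 tested other GPI-anchored genes, 4 rose and 2 fell with the transgene in DN4 cells, and 4 rose and 3 fell in DN2-3 cells. Cd52, a short lymphocyte antigen, was 8.57 to 10.50 in BDC and 6.86 to 7.69 in non-Tg DN4 cells, a rise of 2.36 ± 0.16 (adjusted p = 6.9e-08), and Izumo1r, a folate receptor relative found on regulatory T cells, rose by 1.60 ± 0.09 (adjusted p = 1.03e-08) there and by 1.28 ± 0.09 in DN2-3 cells (adjusted p = 2.6e-07). H60b, a ligand of the NK cell receptor NKG2D, was 6.82 to 7.65 in NOD cells and not above background on any B6g7 array. It was thus higher in NOD by at least 1.21 (adjusted p = 1.76e-11, from the limma fit to signals not raised to background). Between strains 3 of these genes rose and 2 fell, and with stage 2 rose and 3 fell.

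Of 30 tested genes that build and attach the GPI anchor, 10 rose and 5 fell with the transgene in DN4 cells and 4 rose and 3 fell in DN2-3 cells, with medians of 0.06 in both. Pgap1, which trims the anchor in the endoplasmic reticulum, rose by 0.96 ± 0.12 with the transgene in DN4 cells (adjusted p = 1.35e-05) and by 1.03 ± 0.09 with stage (adjusted p = 9.92e-07), while Pigu, a subunit of the enzyme that attaches the anchor, fell by 0.62 ± 0.07 with the transgene in DN4 cells (adjusted p = 7.02e-06). Between strains 6 rose and 4 fell, and with stage 2 rose and 3 fell. Among 5 other surface peptidases, Adam19, a metalloprotease, rose by 1.56 ± 0.17 with the transgene in DN4 cells (adjusted p = 3.19e-06), and Cpd, carboxypeptidase D, fell by 0.86 ± 0.11 (adjusted p = 1.24e-05). In that list 1 rose and 1 fell there, 2 rose and 1 fell in DN2-3 cells, 3 rose and 1 fell with stage, and 1 rose and 1 fell between strains.

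**Figure D5:**
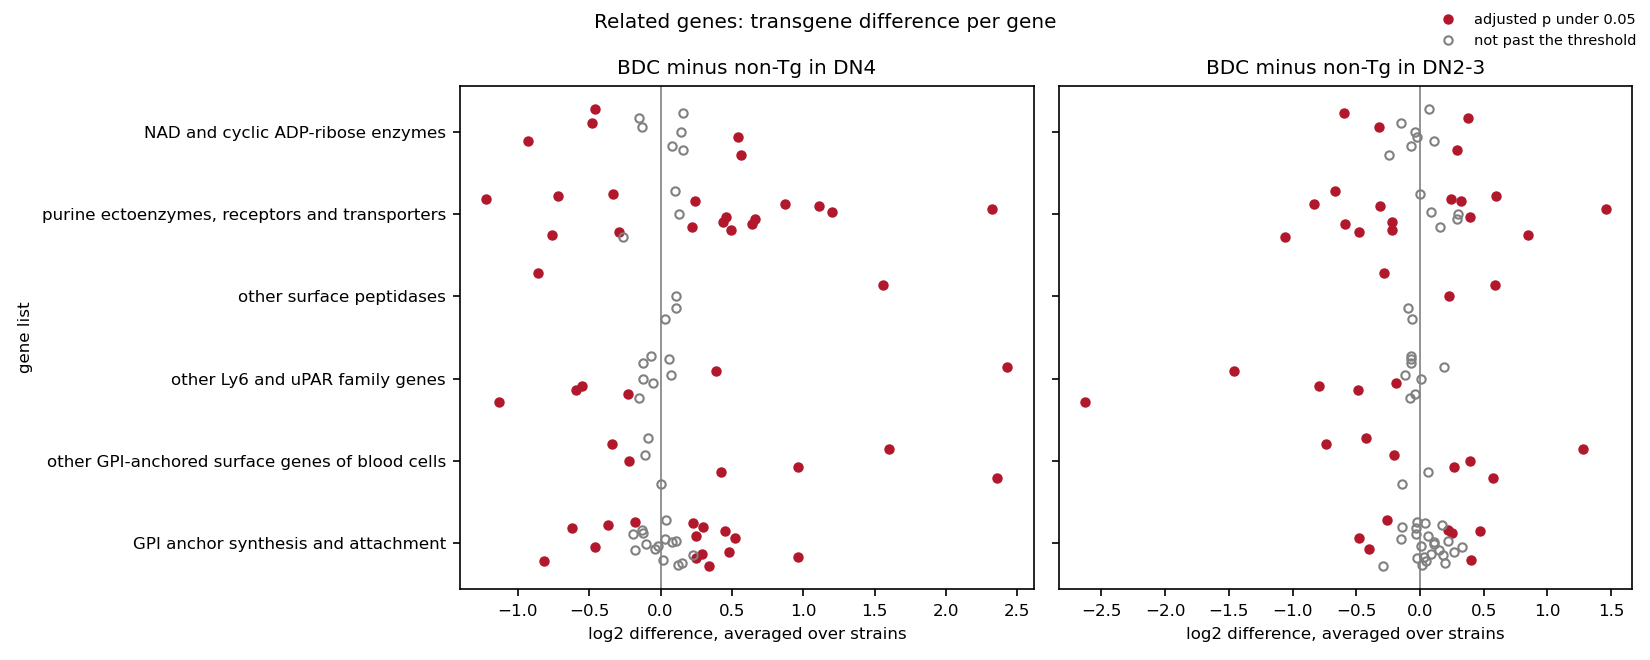
BDC minus non-Tg in log2, averaged over strains, for each tested gene of the 6 related lists in DN4 (left) and DN2-3 (right); filled points passed an adjusted p of 0.05 and open points did not. In DN4 each list has filled points on both sides of 0, with Plaur (2.43), Cd52 (2.36) and P2rx7 (2.32) at the right edge in DN4 and Cd59a (-2.63) at the left edge in DN2-3.

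The genes whose pattern was most like each member were found by Pearson's r of log2 values over the 16 arrays, among 10285 named genes past the filter. The points share 8 groups, so r largely repeats the group means and is a description. For Bst1 they were Tbc1d8 (r = 0.971), Tmem131 (0.959) and Acot5 (0.957), and 39 genes had r over 0.9. For Ly6d they were Igf2 (0.939), Spata6 (0.93) and Ascc1 (0.923), and for Entpd1 Nckap5 (0.961), Cyp2j9 (0.94) and Gab1 (0.934). For Thy1 the most alike was Cd8a (0.943), for Cd24a R3hdm1 (0.915), for Nt5e Chmp4b (0.877) and for Ly6e Mtmr10 (0.772). Between members r was 0.91 for Bst1 and Ly6d and 0.85 for Bst1 and Entpd1. As the transgene difference chose both Bst1 and Ly6d, a high r between them follows from the choice. Entpd1 was above background on 4 arrays only, which limits each r given for it.

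Promoters of Tbc1d8, the gene most like Bst1, and Spata6, among the 3 most like Ly6d and picked after its motifs were seen, are shown from the RefSeq table (GRCm38.p6) as examples of genes that varied with those 2 members. The first Tbc1d8 start is at chr1:39478698-39478997 on the minus strand and the first Spata6 start at chr4:111719760-111720059 on the plus strand, again with the motifs found in capitals.
Tbc1d8 first start: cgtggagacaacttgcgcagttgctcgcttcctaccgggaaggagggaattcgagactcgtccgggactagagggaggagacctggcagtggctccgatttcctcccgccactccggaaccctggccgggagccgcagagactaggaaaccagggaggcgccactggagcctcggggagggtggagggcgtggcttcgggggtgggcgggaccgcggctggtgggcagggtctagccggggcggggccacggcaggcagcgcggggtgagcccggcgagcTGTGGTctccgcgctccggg
Spata6 first start: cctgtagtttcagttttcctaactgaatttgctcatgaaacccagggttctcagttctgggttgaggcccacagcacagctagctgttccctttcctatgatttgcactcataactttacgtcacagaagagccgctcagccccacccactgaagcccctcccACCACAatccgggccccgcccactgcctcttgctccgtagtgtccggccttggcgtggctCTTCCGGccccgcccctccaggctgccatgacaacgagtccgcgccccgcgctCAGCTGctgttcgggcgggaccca
Tbc1d8 held TGTGGT from base 31, and Spata6 held TGTGGT on the reverse strand from base -87, CCGGAAG on the reverse strand from base -27 and CAGCTG from base 27. The 4 promoters of Igf2, the gene most like Ly6d, and the promoter of Tmem131 held none of the 5 motifs. The shares of all promoters given with Entpd1 apply here too.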

How the data were processed

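RNA of 16 sorted thymocyte samples was labelled with biotin and hybridized to microarrays by the authors, per the labels. Each deposited intensity was linear, not logged, and made with RMA in Affymetrix Power Tools per the submitters' processing notes; their versions and the genome build are not given in the sources used here. Of 25108 probe sets, 21157 had 1 gene symbol, 1341 several and 2610 none. Log2 was taken of each deposited intensity, with nothing added, and the brightest probe set by mean was kept for each of 19531 genes. All 7 members with a probe set had 1 probe set each. Genes were tested where the highest group mean reached 7.05 (an intensity of 132.9), the median over probe sets with 1 symbol and all arrays, which left 10689. Precision is limited by the number of arrays, and detection calls were not used.

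The tests used limma, version 3.58.1, under R, version 4.3.3, with tables read by the data.table package, version 1.17.8. The model was lmFit on the 8 group means of all 16 arrays and eBayes (8 residual and 5.06 prior degrees of freedom), two-sided, with Benjamini-Hochberg adjustment over all genes of each comparison at 0.05. The test was checked on simulated data. Interactions are the NOD minus B6g7 difference in BDC minus that in non-Tg cells, the same difference in DN4 minus that in DN2-3, and the DN4 minus DN2-3 difference in BDC minus that in non-Tg cells.

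The members and lists were chosen with earlier results of these data known. All members were named in every comparison, with up to 4 called genes of largest difference per list and comparison, and the 3 genes most like each member. For Ada and Plaur the value in the other stage was added after it was seen. Bst1 and Ly6d were not tested in contrasts whose estimates are correlated with the transgene differences averaged over strains: stage within a genotype and transgene by stage. The alternatives left out the male arrays, added a replicate block or sex as a term, dropped the filter or set it at 120, tested all probe sets with a name, centred arrays on their medians or repeated quantile normalization, and used array weights, trended and robust eBayes, signals raised to background, or only the arrays compared. Each array was also left out in turn. Cd38 and Ly6a had no probe set matched by symbol, gene ID or accession and were not analysed here.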

Additional observations from a re-analysis of the deposited data

Results flagged for a closer look

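Ly6d was flagged because its strain difference in DN4 cells had opposite signs in the 2 genotypes, with a test of the difference itself. The interaction of strain with transgene in DN4 was 1.44 on the log2 scale (limma, adjusted p = 0.00179), 1 call of 5 against 20.1% of all genes. It is a difference between the transgene differences of the strains (-2.07 in NOD and -3.51 in B6g7), so the p is not independent of the choice of Ly6d if single strains entered it.

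Bst1 was flagged because its stage change differed between the strains. The strain by stage term was 0.47 (limma, adjusted p = 0.0299), from -1.30 in NOD and -1.77 in B6g7 cells. That was 1 call of 5, against 21.8% of all genes. The call was lost in 12 of 27 alternatives.

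Thy1 was flagged because its stage change differed between the genotypes. The transgene by stage term was -0.24 (limma, adjusted p = 0.0499), from 0.17 in BDC and 0.41 in non-Tg cells. That was 1 call of 3, against 57.8% of all genes. The call was lost in 18 of 27 alternatives, and the term came to 0.00 (adjusted p = 0.992) after quantile normalization again.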

How the results depend on the processing

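Without the filter, counts of called members were 2 in NOD minus B6g7 averaged over contexts (reported 1), 0 in NOD minus B6g7 in BDC DN2-3 (reported 1), 5 in DN4 minus DN2-3 averaged over contexts (reported 3) and 3 in non-Tg stage (reported 1); Entpd1 and Nt5e are then tested, and Bst1 in BDC DN2-3 strain has an adjusted p of 0.0514. With a filter at 120, non-Tg stage gave 2. With quantile normalization again, the averaged strain count was 3, BDC DN2-3 strain 0, non-Tg stage 2, BDC stage 2 (reported 0) and strain by stage 0 (reported 1). BDC DN4 strain was then 2 (reported 3). With centring, BDC DN2-3 strain and transgene by stage (reported 1) gave 0, and BDC DN4 strain gave 2. Without the male arrays, BDC DN2-3 strain, strain by stage and transgene by stage gave 0, and non-Tg DN4 strain (reported 2), BDC DN4 strain (reported 3) and NOD stage (reported 3) gave 1. With array weights, strain by stage and transgene by stage gave 0, NOD stage and BDC stage 1, strain by transgene in DN4 2 (reported 1) and BDC DN4 strain 4. With trended and robust eBayes, the averaged strain count was 3, BDC stage 1 and strain by transgene in DN4 2. With signals raised to background, non-Tg DN2-3 strain gave 1 (reported 0). All named probe sets and sex as a term left each count as reported. Only the arrays compared (not run where all 8 groups are used) gave 4 in BDC DN4 strain, with Cd24a added (adjusted p = 0.0482).

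Leaving out 1 array at a time, counts ran from 1 to 2 for the averaged strain comparison, 0 to 2 for non-Tg DN2-3 strain, 0 to 1 for BDC DN2-3 strain, 1 to 2 for non-Tg DN4 strain, 1 to 3 for BDC DN4 strain, 3 to 3 for averaged and B6g7 stage, 2 to 4 for NOD stage, 1 to 1 for non-Tg stage, 0 to 1 for BDC stage, 0 to 0 and 1 to 2 for strain by transgene in DN2-3 and DN4, 0 to 2 for strain by stage and 0 to 1 for transgene by stage. Quantile normalization again turned round Ly6e in BDC stage (0.17, adjusted p = 0.0359, reported -0.03) and Thy1 in BDC minus non-Tg in NOD DN2-3 (-0.06, reported 0.09), and put Thy1 in transgene by stage at 0.00 (adjusted p = 0.992); smaller differences of Ly6e, Thy1 and Cd24a also changed sign. The cause was not tested. It put the median of all genes at 0.02 in non-Tg DN4 strain and 0.01 in strain by stage, each 0.13 as reported. The replicate block gave 2 members in the averaged strain comparison, with Cd24a added (adjusted p = 0.0436), and 1 in BDC stage (Thy1, adjusted p = 0.0462), and moved no other count. Between stages of a strain and genotype, deviations of samples with the same number correlated at 0.46, 0.48, 0.58 and 0.10. Other pairs gave -0.25 to 0.41 (median 0.03). As 1 did not exceed 0.1, pairs were not modelled.

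Over all genes, calls without the male arrays were 2465 for averaged strain (reported 4451), 132 for BDC DN2-3 strain (982), 417 for non-Tg DN4 strain (2004), 1730 for BDC DN4 strain (4387), 1112 for averaged stage (2940), 1035 for B6g7 stage (3732), 497 for NOD stage (2069), 2387 for BDC stage (5460), 321 for strain by transgene in DN4 (2152), 26 for strain by stage (2329) and 3 for strain by transgene in DN2-3 (1.15% of genes as reported). Non-Tg DN2-3 strain (1130) gave 81 with only the arrays compared. Without replicate 2 of NOD DN2-3, the counts were 4824 for non-Tg DN2-3 strain, 4396 for non-Tg DN4 strain, 4830 for NOD stage, 5575 for strain by stage and 2765 for strain by transgene in DN2-3. Without replicate 1, they were 4753 for averaged stage and 3734 for strain by transgene in DN4, and array weights gave 1710 for BDC DN2-3 strain. The percentage of calls that were higher changed with quantile normalization again to 54.5 for non-Tg DN4 strain (reported 74.7), 52.1 for BDC DN4 strain (62.8), 46.4 for B6g7 stage (30.6), 53.1 for NOD stage (66.7) and 60.5 for strain by stage (80.6), and with centring to 33.1 for non-Tg DN2-3 strain (47.3), 59.7 for averaged stage (48.9), 82.5 for NOD stage, 88.2 for non-Tg DN4 strain, 91.9 for strain by stage and 32.0 for strain by transgene in DN4 (45.7). Of 89 tests of named list genes, 65 held in every alternative and 24 were lost in at least 1, none with a change of sign. Signals near background limit Entpd1, Nt5e and Bst1 in BDC/B6g7 DN4.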
